A study of Mus musculus with 2 samples.

Results

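The Mir378 rows of the newborn mouse intestine are described here: Gm25301, whose counts were read on its opposite strand because it faces Mir378a inside Ppargc1b, and Mir378b, Mir378c and Mir378d on their annotated strands. These 4 rows of 1973 were found by Ensembl identifier in the mouse GENCODE annotation of GRCm38. The strand of Gm25301 was chosen from the counts themselves, so all levels below are a description and carry no test. MicroRNA sequencing, which reads RNA shorter than 30 bases, was made from the intestines of 2 pups of strain B6NCrl on postnatal day 0, called pup 1 and pup 2, with 1 library each. Both pups came from the same pregnant female and carried no treatment or engineered allele that the labels name. The labels give neither sex nor gut segment, and the series has 1 group, so littermates are the only samples that can be compared.

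A miRNA is cut from a hairpin in a longer transcript, and bases 2 to 8 of the mature strand, the seed, choose most of its mRNA targets. Mir378a lies in an intron of Ppargc1b, which codes for a coactivator of mitochondrial genes, and miR-378a is known from skeletal muscle, heart and brown fat as a regulator of energy metabolism. In gut it has been studied in colorectal tumours. Mir378b, Mir378c and Mir378d are separate genes that were named for the likeness of their mature sequence.

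The mature sequences of those 3 genes, from RefSeq on GRCm38.p6 and written 5′ to 3′ with the seed in capitals, show how closely the family overlaps. That overlap bears on which reads could be counted. All 3 genes matched an entry by symbol.
mmu-miR-378b: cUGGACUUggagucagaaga
mmu-miR-378c: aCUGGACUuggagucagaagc
mmu-miR-378d: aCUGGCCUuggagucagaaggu
Counted from the 5′ end of miR-378c, miR-378d differs from it by A6C, inside the seed, and by C21G. miR-378b starts 1 base later, at position 2 of miR-378c, and differs by C21A. The seeds of these 3 thus differ from each other, and 0 other mature miRNAs of the 1738 in the RefSeq table carry any of them at bases 2 to 8. Mir378a is not among those 1738, so the count of 0 does not cover it, and its mature seed was not compared here. The first 20 bases of miR-378c, seed included, do occur in another annotated miRNA sequence. The Mir378a hairpin shares a run of 20 bases with the Mir378c hairpin. The run of 14 bases that all 3 share is cuuggagucagaag, which was found, on the hairpin strand, in 3 of 1005 RefSeq hairpins, a share of 0.299%, and those 3 are the genes themselves. Mir378a is not among the 1005, and its GENCODE hairpin holds the run of 14 bases too.

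The hairpins differ more than the mature strands do. They are printed with the mature miRNA in capitals, to show that it sits at different ends.
Mir378b hairpin: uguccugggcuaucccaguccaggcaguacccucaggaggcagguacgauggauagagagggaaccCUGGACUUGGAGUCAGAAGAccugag
Mir378c hairpin: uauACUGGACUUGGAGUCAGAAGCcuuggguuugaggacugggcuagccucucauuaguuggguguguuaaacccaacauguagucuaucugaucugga
Mir378d hairpin: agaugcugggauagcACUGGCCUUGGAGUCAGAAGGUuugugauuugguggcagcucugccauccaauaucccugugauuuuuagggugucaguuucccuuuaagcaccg
The mature strand takes bases 67 to 86 of 92 in Mir378b, on the 3′ side of the hairpin. It takes bases 4 to 24 of 99 in Mir378c and 16 to 37 of 110 in Mir378d, on the 5′ side of both. Folded with RNAfold, Mir378b reached a minimum free energy of -31.1 kcal/mol, Mir378c -27.0 and Mir378d -35.0. Per base these were -0.34, -0.27 and -0.32, all weaker than the median of -0.37 over 2202 annotated mouse miRNA sequences. Mir378a, at -0.58 per base, folded more stably than 95.6% of them, against 40.6% for Mir378b, 31.1% for Mir378d and 13.1% for Mir378c.

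On GRCm38, the Gm25301 row spans chromosome 18 from 61397813 to 61397925 on the plus strand and has no host gene there. Mir378a lies on the minus strand at 61397835 to 61397900, in intron 1 of Ppargc1b in all 3 annotated transcripts that span it. Its 66 bases cover 58.4% of the 113 bases of the Gm25301 row, with 22 bases before it and 25 after it. Mir378a has no row of its own among the 1973 analysed here. A read counted on the opposite strand of Gm25301 thus came from the strand of Mir378a, but the counts do not say where within the 113 bases it lay. Mir378b lies at 88352773 to 88352864 of chromosome 11 (plus strand), Mir378c at 46954830 to 46954928 of chromosome 14 (minus strand) and Mir378d at 126710282 to 126710391 of chromosome 10 (minus strand). None of these 3 lies within another gene of its own strand, unlike Mir378a. Introns of Msi2, an RNA-binding protein gene, and of Samd4 run past Mir378b and Mir378c on the other strand.

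**Figure D1:**
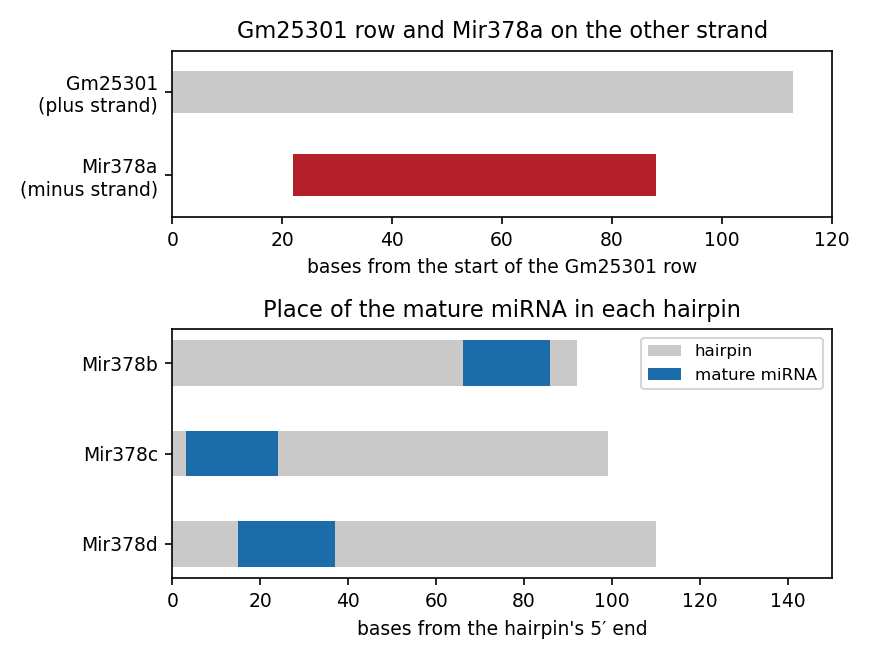
Upper panel: the Gm25301 row (113 bases) and Mir378a (66 bases) on the other strand, in bases from the start of the row. Lower panel: the mature miRNA (blue) within each hairpin (grey), in bases from the hairpin's 5′ end, near the 3′ end in Mir378b and near the 5′ end in Mir378c and Mir378d.

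Sequencing gave 6375694 reads for pup 1 and 8373497 for pup 2, of which 3567658 and 4683939 fell on the annotated strand of miRNA genes. Levels are given as CPM, counts per 1000000 of those annotated-strand counts, and every ± is the SD over the 2 pups. Multi-mapped reads, 30.0% ± 0.382 of each library, were assigned to no row. Gut epithelial markers were present in all 8 of 8 listed genes, summing to 282107 CPM in pup 1 and 327695 in pup 2.

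Nearly all Mir378 counts came from the strand of Mir378a. Gm25301 had 84076 opposite-strand counts in pup 1, or 23566 CPM (95% Poisson interval 23407 to 23726). In pup 2 it had 107200, or 22887 CPM (22750 to 23024). The mean was 23226 ± 480.4 CPM, and the pups lay close together, though their counting intervals did not overlap. The row stood at rank 11 in pup 1 and at rank 13 in pup 2 among all rows, each strand ranked apart. In bulk tissue, fewer cells of a type and less RNA per cell cannot be told apart. The intervals hold the counting error of reads alone. The reads carry no molecular identifiers to mark single molecules, so copies of a molecule were counted as separate reads and the intervals can be too narrow.

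Measured as distance on the log2(CPM + 1) scale over the 2 pups, the rows most like Gm25301 were Mir99a (distance 0.0864), Mir200c (0.158), Mirlet7i (0.295) and Mir194-1 (0.303). Mir99a had 82503 counts in pup 1 and 101277 in pup 2, a mean of 22374 ± 1063 CPM. Epithelial Mir200c had 75486 and 109460 counts, 22264 ± 1563 CPM. Of these neighbours, Mir99a and Mir200c lay within their own SD of the Gm25301 mean, as did Mir194-1 with 22021 ± 3749 CPM. Mir99a was lower than Gm25301 in both pups. Mir200c and Mir194-1 were lower in pup 1 and higher in pup 2, so their order against Gm25301 is not resolved. Mirlet7i had 26468 ± 3117 CPM, higher than Gm25301 in both pups.

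The other 3 genes left few counts. Mir378d was counted 50 times in pup 1 and 70 times in pup 2, equal to 14.0 CPM (95% Poisson interval 10.4 to 18.5) and 14.9 CPM (11.7 to 18.9). Mir378c had 36 and 33 counts, or 10.1 CPM (7.07 to 14.0) and 7.05 CPM (4.85 to 9.89). Mir378b had 8 counts in each pup, or 2.24 CPM (0.968 to 4.42) and 1.71 CPM (0.737 to 3.37). The pups overlapped within counting error for each of the 3. A count of 0 allows up to 3 counts, 0.841 CPM in pup 1 and 0.640 in pup 2, and the point values of Mir378b lay above that limit in both pups.

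**Figure D2:**
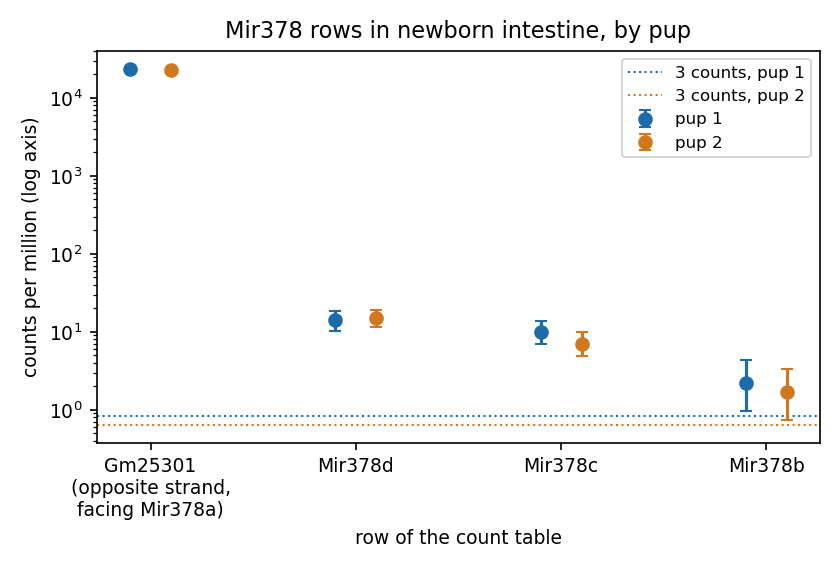
CPM (log axis) of the 4 Mir378 rows in pup 1 and pup 2, with 95% Poisson intervals and dotted lines at the level of 3 counts in each library. Gm25301 on its opposite strand lies at 23566 and 22887 CPM, and the other 3 rows lie between 1.71 and 14.9.

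The rows most like Mir378d by the same distance were Mir193a (distance 0.127, 14.4 ± 0.692 CPM), Mir3105 (0.152, 15.7 ± 0.771) and Mir3072 (0.230, 16.2 ± 0.0223). For Mir378c they were Mir450-1 (distance 0.131, 9.17 ± 2.10 CPM), Mir184 (0.195, 8.82 ± 1.00) and Mir128-2 (0.280, 9.28 ± 0.747).

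The order of the means was Gm25301, Mir378d (14.5 ± 0.658 CPM), Mir378c (8.57 ± 2.15) and Mir378b (1.98 ± 0.378), and it held in each pup. The strand of Mir378a exceeded Mir378d 1682-fold in pup 1 (exact binomial 95% interval 1275 to 2266) and 1531-fold in pup 2 (1212 to 1965), a log2 ratio of 10.65 ± 0.10. It exceeded Mir378c by 11.43 ± 0.34 and Mir378b by 13.53 ± 0.25 on the log2 scale. Mir378d and Mir378c were not separated in pup 1, where their ratio was 1.39-fold with an interval of 0.887 to 2.19. In pup 2 the ratio was 2.12-fold with an interval of 1.38 to 3.31, above 1. Mir378c exceeded Mir378b 4.50-fold in pup 1 (2.06 to 11.2) and 4.13-fold in pup 2 (1.87 to 10.3). Ratios between different miRNAs also hold any difference in small RNA capture, which both pups share and which was not tested.

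Together the 4 rows took 84170 counts in pup 1 and 107311 in pup 2. Set against annotated-strand counts this was 2.33% ± 0.0482, and against all reads 1.30% ± 0.0273. Gm25301 held 99.9% of the summed counts in each pup. Mir378b, Mir378c and Mir378d held the other 94 counts in pup 1 and 111 in pup 2, a share of 0.108% ± 0.00583.

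Reads of these genes can be lost where the sequence repeats, since multi-mapped reads were assigned to no row. The first 20 of 21 bases of miR-378c, and the first 19 of 20 of miR-378b, occur in another annotated miRNA sequence. Whether reads from the strand of Mir378a were counted for Mir378b, Mir378c or Mir378d was not tested, and the levels and ratios above carry that limit. The Mir378a and Mir378c hairpins share a run of 20 bases and the Mir378a and Mir378b hairpins 19, while Mir378b and Mir378c share 19. Mir378d shares at most 15 bases with Mir378a and 14 with Mir378b or Mir378c, and its longest run shared with any other annotated miRNA sequence was 16. Those are exact runs and do not cover reads with a mismatch. Over the bases of miR-378c, miR-378d differs from it only by A6C and C21G. Runs of 20 bases or more that occur at another miRNA locus were found in 49.4% of the 2202 sequences. How many reads of each gene were lost was not tested, since multi-mapped reads are given only as a total.

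All 4 rows were read from 1 strand alone. Gm25301 had 0 annotated-strand counts beside 84076 in pup 1, which allows a share of up to 0.00357%, and 0 beside 107200 in pup 2, which allows up to 0.00280%. Mir378d had 0 opposite-strand counts of 50 and of 70, which allows shares of up to 6.0% and 4.29%. For Mir378c, 0 of 36 and 0 of 33 allow up to 8.33% and 9.09%, and for Mir378b 0 of 8 in each pup allows up to 37.5%. At this depth the strand of Mir378b was only loosely bounded.

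Reads on the wrong strand of their row were rare elsewhere. Of 388 rows with at least 10 counts over both pups and strands, 12 (3.09%) had more than 50% of them on the opposite strand, and 351 had none there. Gm25301 alone made up 66.6% ± 0.0422 of all opposite-strand counts, and its level was 6.74 times that of the next row, Gm24083 (3448 ± 2.57 CPM), which faces Mir191. The 3 rows after it were Gm25927 (2202 ± 121 CPM), Gm25252 (1673 ± 106) and Gm24321 (1242 ± 7.68). They face Mirlet7e, Mir376a and Mir409. Opposite-strand counts were 1.95% ± 0.0396 of all reads, and 0.653% ± 0.0124 without Gm25301.

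**Figure D3:**
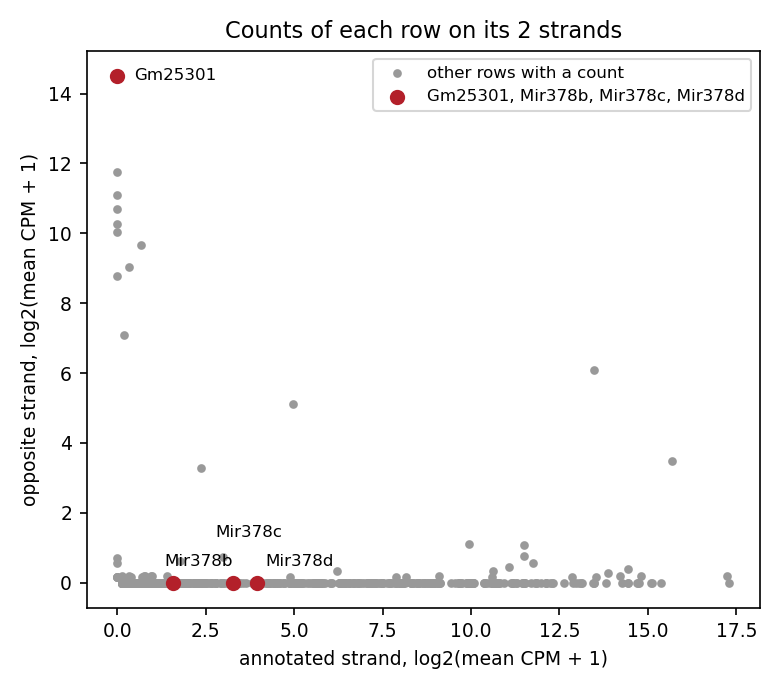
Mean level of each row with a count, as log2(CPM + 1), on its annotated strand (x axis) and its opposite strand (y axis). Gm25301 is the highest point of the opposite strand at 0 on the annotated strand, and Mir378b, Mir378c and Mir378d lie at 0 on the opposite strand.

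The littermates were next compared over every row and strand with at least 10 counts in each library, with a 2-sided exact binomial test whose expected ratio was that of the TMM-scaled libraries. TMM is edgeR's scaling for library makeup, and the test sets 2 libraries against counting noise and holds no replicate of either animal. Of 328 features tested, 136 were called at a Benjamini-Hochberg adjusted p under 0.05, or 41.5%. Of the features tested, 71 were called higher in pup 2 (21.6%) and 65 lower (19.8%), so 52.2% of the calls were higher. Scaling by total counts made that split 55 to 78 (41.4%), and scaling by the upper quartile made it 90 to 47 (65.7%). With TMM scaling, all 8 listed epithelial markers were called higher in pup 2. Smooth muscle Mir143 and endothelial Mir126a were called lower, and smooth muscle Mir145a was not called. How this difference in markers bears on Gm25301 was not tested. Of the Mir378 rows, 3 of 4 reached the count minimum and 0 of those 3 were called by the exact binomial test. At an unadjusted p under 0.05, 0 of the 3 passed as well. Mir378b, with 8 counts in each pup, fell just under the minimum.

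Gm25301 had a log2 ratio, pup 2 over pup 1, of 0.00060, that is 1.00-fold with a 95% interval of 0.991 to 1.01 (exact binomial adjusted p = 0.972). Its counts are large enough that a scaling decides the call: with total counts the log2 ratio was -0.0422 (adjusted p = 1.11e-09, exact binomial test) and with the upper quartile 0.0422 (adjusted p = 1.11e-09). The median absolute log2 ratio over all 328 features was 0.18, and 0.305% of features had a smaller one than Gm25301. Mir378d had a log2 ratio of 0.14, 1.10-fold with an interval of 0.753 to 1.61 (adjusted p = 0.813, exact binomial test). Mir378c had -0.48, 0.719-fold with an interval of 0.435 to 1.19 (adjusted p = 0.327, exact binomial test). With 33 to 70 counts, differences of the size of the median feature were not detectable at this depth for Mir378c and Mir378d. For Mir378b the ratio was 0.785-fold with an interval of 0.257 to 2.40.

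**Figure D4:**
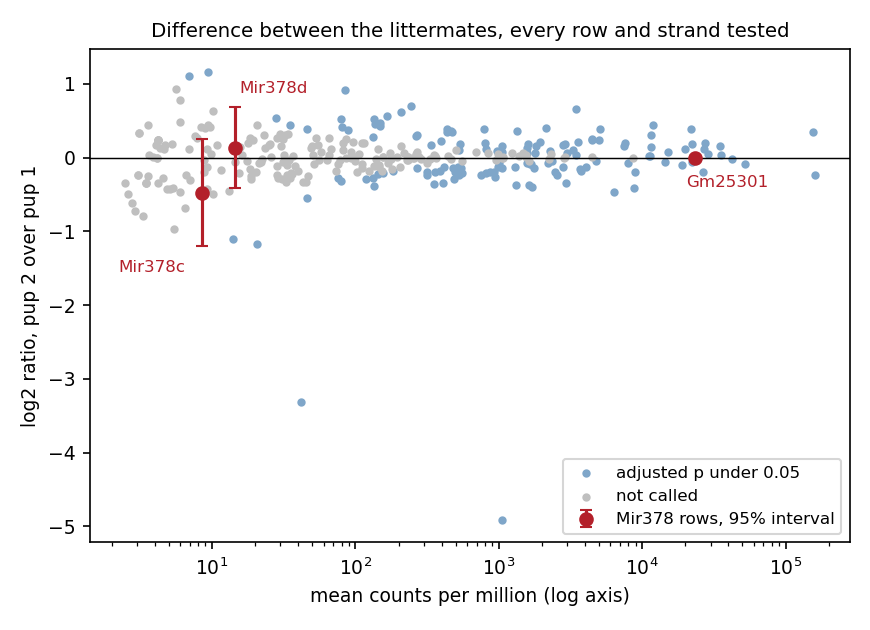
Log2 ratio of pup 2 over pup 1 against mean CPM (log axis) for the 328 features tested, blue where the adjusted p was under 0.05. The Mir378 rows are red with 95% intervals: Gm25301 lies at 0.00060, Mir378d at 0.14 and Mir378c at -0.48.

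The other miRNAs listed for their ties to energy metabolism all had lower counted means than the strand of Mir378a. By its mean that strand ranked 11 among 723 features with counts, so most miRNAs of any kind lay below it. Reads that match several copies, as those of Mir103-1 and Mir103-2 or Mir26a-1 and Mir26a-2 may, were counted for no row. How far such copies were undercounted was not tested. Of 7 miRNAs in introns of metabolic or myosin genes, 6 were detected, which here means at least 10 counts in each pup. The list summed to 1454 CPM in pup 1 and 1517 in pup 2. Its highest members were Mir107 of a pantothenate kinase gene (978 ± 22.8 CPM), Mir499 of a myosin gene (234 ± 3.48), Mir208b (111 ± 8.71) and Mir103-2 (79.8 ± 18.8). Gm25301 exceeded Mir107 by 23.7-fold. Mir33, which lies in a sterol regulator gene, had 75.7 ± 5.06 CPM. Of the 6, 2 were called higher in pup 2 and 0 lower, namely Mir107 (log2 ratio 0.09) and Mir103-2 (0.53), a share of 33.3% beside 41.5% of all features (21.6% higher and 19.8% lower). The list's median log2 ratio was 0.15, beside 0.0022 over all 328 features. Mir107 did not pass with total-count scaling (exact binomial adjusted p = 0.266), and Mir208b passed too with the upper quartile.

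Of 17 miRNAs studied in brown fat or mitochondrial metabolism, 13 were detected, and 2 were called higher and 2 lower in pup 2, a share of 30.8% beside 41.5% of all features. The median log2 ratio of the list was 0.03, and -0.02 with total-count scaling. A change of scaling shifts the log2 ratio of every feature by the same amount, so the list moved with all other features. Highest were Mir203, also an epithelial miRNA (11510 ± 597 CPM), Mir182 (3482 ± 1025), Mir27b (2460 ± 294) and Mir455 (990 ± 1.77). Mir203 and Mir182 were the genes called higher, and Mir27b and Mir30b the genes called lower, under each scaling tried, while Mir455 was called higher with the upper quartile alone. Gm25301 exceeded Mir203 by 2.02-fold and Mir455 by 23.5-fold. Mir193b had 31.2 ± 3.29 CPM, and its cluster relative Mir365-1 had 0 and 5 counts. Mir133a-1 and Mir133a-2 had 0 counts in both pups, and multi-mapped reads of these copies were counted for no gene.

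Because miR-378a is abundant in striated muscle, the muscle markers are given beside its level. Of 9 matched genes 3 were detected, and the list summed to 349 CPM in pup 1 and 359 in pup 2. Gm25301 exceeded the myosin miRNA Mir499 by 99.2-fold, and Mir208b had 111 ± 8.71 CPM. Mir206 of skeletal muscle had 5.30 ± 0.357 CPM, and Mir208a of heart had 0.354 ± 0.104. Mir1b (5 and 16 counts), Mir208a (1 and 2) and Mir133b (1 and 1) had counts in both pups but fell under the minimum for detection. Mir1a-1, Mir133a-1 and Mir133a-2 were at 0, and Mir1a-2 has no row. Multi-mapped reads of gene copies were counted for no row, so these values of 0 and the list sum do not measure muscle content. Smooth muscle Mir143 stood at 161103 ± 21783 CPM and endothelial Mir126a at 52213 ± 3424. Erythroid markers summed to 101 CPM in pup 1 and 148 in pup 2, leukocyte markers to 436 and 483 over 2 of 3 listed genes, and liver Mir122 had 20.6 ± 11.7. The third leukocyte gene, Mir142, is not in that sum, and the opposite strand of Mir142b, which faces it, had 1054 ± 60.9 CPM. Which cells of the gut gave the Mir378a-strand reads was not tested.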

How the data were processed

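Small RNA of 2 newborn intestines was analysed from raw read counts per miRNA gene, deposited by the authors and made against mm10 with the GENCODE M4 annotation, per the file headers. The aligner and the counter are not given in the sources used here. The 3 count columns of a library hold, judged by their sums, both strands together, the annotated strand and the opposite strand. The 4 totals of reads outside genes stayed out of library sizes and tests. Identifiers, version dropped, were matched to GENCODE M21 on GRCm38 (1894 of 1973).

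CPM, intervals (Poisson, exact binomial) and tests were computed with SciPy 1.17.1, scaling with edgeR 4.0.16 (TMM, upper quartile) and DESeq2 1.42.0 (size factors), and folding with RNAfold 2.7.2. The test was tried on simulated Poisson counts without variation between animals. That is the noise it assumes, so the simulation checks the computation and not the calls between littermates. The members, lists and markers were chosen with earlier results of these data known. Genes named are the 4 members, the 4 rows nearest to Gm25301 and the 3 nearest to Mir378c or Mir378d, the 5 rows highest on the opposite strand, and up to 4 highest members of each list. Mir33, Mir30b, Mir193b, Mir365-1, single cell markers, opposite-strand rows beyond the 5 highest and the genes at 0 were picked with their values in view. Alternatives tried were other scalings, count minimums of 1 and 100, strand ignored, other denominators and each pup alone.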

Additional observations from a re-analysis of the deposited data

How the results depend on the processing

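The level of Gm25301 was 12995 CPM when set over all reads and 22443 over counts on either strand. Over all reads, Mir378b stood at 1.11 CPM, Mir378c at 4.79 and Mir378d at 8.10, and the summed share of the 4 rows was 1.30%. With Gm25301 in both numerator and denominator that share was 2.27%. These shifts follow from the larger denominators. The order of the 4 rows could not change, since each denominator is shared by all 4 and the order holds in each pup. The log2 ratio of Gm25301 between pups was -0.0422 with total counts, -0.0016 with DESeq2 size factors and 0.0422 with the upper quartile, so its sign depended on the scaling. Of 54 alternative values, 22 could not differ by construction (each pup alone, where n is 2, and levels with strand ignored, where the other strand holds 0 counts). Of the other 32, 22 kept their direction and their side of the threshold, or moved by no more than the SD between pups. The 32 include the count minimums of 1 and 100, which reuse the same scaling. There the log2 ratios of the members could not differ, and only their adjusted p could. The count of features called ranged from 127 to 137 over the alternatives, but the share did not hold: 127 of 560 (22.7%) were called at a minimum of 1 count and 134 of 239 (56.1%) at a minimum of 100, beside 41.5%. With each pup alone, the level of Gm25301 was 22887 and 23566 CPM and the summed share 2.29% and 2.36%. At a minimum of 100 counts Mir378c and Mir378d were not tested. No paired analysis was possible because the series has 1 group. Depth limits Mir378b, Mir378c and Mir378d, where intervals of the difference between pups reach from 0.257-fold to 2.40-fold, 0.435-fold to 1.19-fold and 0.753-fold to 1.61-fold.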

Other observations

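Gm25301 belongs to a small set of rows read from the strand that faces them. Of 14 rows with at least 10 opposite-strand counts in each pup, 13 overlap an annotated miRNA gene on the other strand in GENCODE M21, and 0 of those 13 facing genes have a row of their own among the 1973 analysed here. In 10 of the 13, more than 99% of the row's counts lay on the opposite strand. The other 3 were Mir3074-1, which faces Mir24-1 and had 52.0% there, Mir3073a with 67.9%, and Mir126a, which had 0.0191%. Mir142b, facing Mir142, had 1054 ± 60.9 CPM on its opposite strand, Mir299b 817 ± 102, Mir497b 527 ± 15.9, Gm25750 442 ± 3.36 and Gm24111, facing Mirlet7f-1, 134 ± 30.9. The remaining row, Mir203, has no facing miRNA gene in that annotation and had 0.581% of its counts on the opposite strand. How many of all 1973 rows face a miRNA gene, and how many of those facing genes lack a row, was not counted. The 13 of 14 and the 0 of 13 thus have no share over all rows beside them. These rows were chosen after their counts were seen, and why the facing genes have no row here was not tested.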
